A study of Homo sapiens with 10 samples.

Results

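Ovarian carcinoma cells that had survived cisplatin were compared with ovarian carcinoma cells held in silica gel. All cells were OVCAR-3, an established human ovarian adenocarcinoma line grown in RPMI medium with fetal bovine serum, and RNA was measured as TPM, a gene's share of all transcripts corrected for transcript length. The comparison uses 4 of the series' 10 libraries, chosen by their labels. The 2 Treated libraries came from survivors of 24 hours in 0.5 uM cisplatin that had then recovered for 2 weeks, with no gel named. The 2 Day3 libraries came from cells kept in silica gel for 3 days, with no drug and no recovery named. The 2 Control libraries, from standard culture, gave the level to which both states were set. The series states 2 biological replicates in each of 5 conditions, and the other 4 libraries came from cells kept in gel for 24 hours (Day1) and from cells that left the gel after 3 days and recovered for 2 weeks (Extracted). Drug, recovery and gel all differ between Treated and Day3 cells, so their parts in a difference cannot be told apart.

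Cisplatin is a platinum drug that crosslinks DNA and blocks its copying, and cells that outlive it may carry lasting changes in expression. Silica gel encloses cells in a rigid porous network through which small molecules pass, so that cells live on without a surface on which to spread. Interferon-stimulated genes encode antiviral proteins and are switched on by STAT factors at an upstream element called ISRE. NF-kB factors act likewise on chemokine genes, and serum response factor on immediate-early genes through an element called the CArG box. Laminins, integrins and hemidesmosome proteins fix an epithelial cell to its basement membrane, and YAP is a co-activator of genes that respond to spreading and tension.

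From the gene groups described below, 8 genes serve as examples. The 4 interferon-stimulated genes IFIT1, IFITM1, IFI6 and IFI44L were higher than Control in both states. The 2 chemokine genes CXCL1 and CXCL2 were higher in Treated cells. The others are the growth-response gene EGR1 and the division gene MKI67. Their upstream sequences are printed here. Each is the 250 bases before the gene's start in RefSeq, build GRCh38.p14, 5′ to 3′ on the gene's strand. Capitals mark ISRE matches in the first 4 (GAAA, any 2 bases, GAAA, on either strand), NF-kB matches in CXCL1 and CXCL2 (GGGA, any base, TTTCC), the CArG box in EGR1 and the CCAAT box in MKI67. The CCAAT matches of MKI67 lie on the opposite strand and so read ATTGG as printed. IFIT1 lies at chr10:89392373-89392622 on the plus strand, IFITM1 at chr11:313790-314039 on the plus strand, IFI6 at chr1:27672193-27672442 on the minus strand and IFI44L at chr1:78620198-78620447 on the plus strand. CXCL1 lies at chr4:73869143-73869392 on the plus strand, CXCL2 at chr4:74099196-74099445 on the minus strand, EGR1 at chr5:138465229-138465478 on the plus strand and MKI67 at chr10:128126424-128126673 on the minus strand.
IFIT1: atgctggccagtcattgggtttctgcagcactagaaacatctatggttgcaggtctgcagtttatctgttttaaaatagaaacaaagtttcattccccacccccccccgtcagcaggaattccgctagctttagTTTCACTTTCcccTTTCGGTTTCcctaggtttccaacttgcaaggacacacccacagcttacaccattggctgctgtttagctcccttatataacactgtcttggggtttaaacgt
IFITM1: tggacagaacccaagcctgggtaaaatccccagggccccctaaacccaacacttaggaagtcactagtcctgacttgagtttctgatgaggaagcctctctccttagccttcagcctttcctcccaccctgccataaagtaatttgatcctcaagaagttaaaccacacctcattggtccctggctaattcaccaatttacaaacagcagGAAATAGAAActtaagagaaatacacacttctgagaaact
IFI6: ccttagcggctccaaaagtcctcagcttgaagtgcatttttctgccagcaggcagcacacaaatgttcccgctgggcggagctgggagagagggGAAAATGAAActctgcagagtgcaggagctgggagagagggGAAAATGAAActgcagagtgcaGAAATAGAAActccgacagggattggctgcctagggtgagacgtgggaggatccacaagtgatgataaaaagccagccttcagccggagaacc
IFI44L: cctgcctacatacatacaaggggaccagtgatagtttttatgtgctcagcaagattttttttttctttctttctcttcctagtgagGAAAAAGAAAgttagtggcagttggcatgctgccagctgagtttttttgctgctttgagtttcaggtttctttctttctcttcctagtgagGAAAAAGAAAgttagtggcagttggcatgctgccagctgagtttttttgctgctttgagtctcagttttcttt
CXCL1: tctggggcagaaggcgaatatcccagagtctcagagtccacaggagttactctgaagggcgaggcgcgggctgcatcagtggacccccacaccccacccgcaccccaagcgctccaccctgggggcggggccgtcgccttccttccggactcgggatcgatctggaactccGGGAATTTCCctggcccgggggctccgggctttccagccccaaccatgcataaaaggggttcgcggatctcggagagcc
CXCL2: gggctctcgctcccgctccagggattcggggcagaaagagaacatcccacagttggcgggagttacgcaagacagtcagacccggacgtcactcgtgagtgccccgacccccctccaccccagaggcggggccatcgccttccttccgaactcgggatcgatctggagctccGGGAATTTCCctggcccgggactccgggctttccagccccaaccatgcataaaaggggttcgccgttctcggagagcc
EGR1: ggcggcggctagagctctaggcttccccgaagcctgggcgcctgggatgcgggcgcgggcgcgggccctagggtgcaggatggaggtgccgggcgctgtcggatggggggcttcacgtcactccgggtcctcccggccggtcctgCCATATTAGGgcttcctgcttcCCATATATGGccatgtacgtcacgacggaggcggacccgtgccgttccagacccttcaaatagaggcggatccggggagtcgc
MKI67: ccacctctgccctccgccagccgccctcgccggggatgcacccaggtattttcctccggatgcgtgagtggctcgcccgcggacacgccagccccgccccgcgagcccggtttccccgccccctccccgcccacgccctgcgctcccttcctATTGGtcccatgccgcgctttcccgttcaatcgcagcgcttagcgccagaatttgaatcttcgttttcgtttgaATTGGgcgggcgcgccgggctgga

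The motifs were searched on both strands in windows of 300 bases, 250 before and 50 after the start. The ISRE letters were found in 14 of the 19 interferon-stimulated genes with a window, against 3.65% of 27305 windows of all genes. The NF-kB letters were in 8 of 15 NF-kB and chemokine genes, against 0.579% of all windows. Among 25 mitotic genes, 21 held CCAAT (35.7% of all windows) and 18 held TTTGAA, the core of the cell-cycle homology region (15.4%). The TEAD letters GGAATG, which mark YAP-responsive elements, were in 5 of 13 YAP targets (14% of all windows), and a CArG box was in 1 of 14 immediate-early genes, EGR1 (1.29%). IFI6 had 3 ISRE matches, at 156, 115 and 93 bases before the start, and the single NF-kB matches of CXCL1 and CXCL2 lay 79 and 78 bases before it. These matches describe letters and were tested for no effect.

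The libraries resembled each other in breadth, with 13896 to 14173 genes at 1 TPM or more, and depth is unknown because TPM carry no read counts. The 13 mitochondrial mRNAs held 10.8% and 10.4% of the TPM in Treated, 5.97% and 7.61% in Day3, and 16.7% and 15.8% in Control libraries. Small-RNA genes held 14.7% of Treated replicate 2, against 0.329% to 1.18% of the other 5 libraries of these groups, and its part in the results was not tested. Because such shares press on all other values, TPM were rescaled per library by the median of ratios, and values below are rescaled TPM unless named otherwise. On the first principal component of the 10 libraries (37.1% of the variance) Treated lay at 36.1 and 36.4, Day3 at -27.1 and -24.2, and Control at 2.42 and 3.53. On the second (17.9%) Treated lay at 20.9 and 23.6, Day3 at 2.47 and 4.33, and Control at -25.2 and -26.5. Control thus lay between the states on the first axis and beyond both on the second.

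The direct comparison asked which genes set cisplatin survivors apart from cells in gel. Of 15167 genes tested with limma, 2348 (15.5%) were higher in Treated than in Day3 cells and 2070 (13.6%) were lower, each at a Benjamini-Hochberg adjusted p under 0.05. In 10028 genes (66.1%) the Treated and Day3 libraries did not overlap. Of the called genes, 649 were at least 2-fold higher and 226 at least 2-fold lower on the log2(rescaled TPM + 1) scale. The genes called with unscaled TPM gave 419 and 419. The epidermal growth factor ligand AREG, the hyaluronan receptor CD44, the basement-membrane chain LAMA3 and a set of defence proteins were among the genes that were higher in Treated cells. The growth-factor binder IGFBP5, the secreted signal WNT11 and the selenium carrier SELENOP were among those that were lower. In bulk RNA, more cells of a kind and more RNA per cell cannot be told apart. With unscaled TPM, whose median difference over all genes was -0.203 instead of -0.001, the split was 1265 higher and 4040 lower, so the balance of directions depends on the scaling and list results are read against these medians. Without Day3 replicate 1 the calls numbered 2240, without Day3 replicate 2 they numbered 2607, and without Treated replicates 1 and 2 they numbered 3116 and 3624.

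Among the genes that were higher in Treated cells, AREG (chr4:74445134-74455009, plus strand) had 106.3 and 93.8 TPM in Treated, 4.12 and 5.39 in Day3, and 5.72 and 5.2 in Control libraries. The difference between Treated and Day3 was 4.14 ± 0.20 on the log2 scale (SE, 2 libraries each, adjusted p = 4.47e-06), while Day3 and Control overlapped. CD44 had 88.9 and 89.1 TPM in Treated, 9.61 and 9.81 in Day3, and 11.9 and 10.5 in Control libraries (Treated against Day3 3.07 ± 0.20, adjusted p = 1.76e-05). Both genes were thus high in Treated libraries alone among these 6. COL17A1, the transmembrane collagen of hemidesmosomes, had 13.7 and 17.1 TPM in Treated, 0.346 and 0.621 in Day3, and 0.946 and 1.55 in Control libraries (Treated against Day3 3.47 ± 0.21). CDA, which deaminates cytidine and its drug analogues, had 18.6 and 26.3 TPM in Treated, 0.989 and 1.44 in Day3, and 1.67 and 1.37 in Control libraries (3.39 ± 0.25). ITGB2, the beta chain of leukocyte integrins, had 15.5 and 16.4 TPM in Treated, 0.467 and 0.898 in Day3, and 1.29 and 1.16 in Control libraries (3.34 ± 0.16). None of these 5 genes was called between Day3 and Control. The hair keratin KRT81 (3.16 ± 0.19) and the acute-phase protein SAA1 (3.11 ± 0.39) completed this pattern, and each has a near-identical neighbour, KRT86 and SAA2, with which reads may be shared.

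Among the genes that were lower in Treated cells, IGFBP5 (chr2:216672105-216695525, minus strand) had 3.0 and 3.4 TPM in Treated, 37.5 and 34.4 in Day3, and 5.93 and 6.83 in Control libraries. The difference between Treated and Day3 was -3.14 ± 0.12 (adjusted p = 1.51e-06), and Day3 stood above Control by 2.33 ± 0.12. WNT11 (chr11:76186325-76210736, minus strand) had 12.4 and 12.6 TPM in Treated, 104.8 and 105.2 in Day3, and 40.3 and 61.4 in Control libraries (Treated against Day3 -2.97 ± 0.26, adjusted p = 7.22e-05). SELENOP had 21.2 and 30.7 TPM in Treated, 113.6 and 108.3 in Day3, and 41.0 and 54.6 in Control libraries (-2.08 ± 0.28, adjusted p = 0.000736). In these 3 genes Control lay between the states. The transcription factor NPAS3 and the intracellular chloride channel protein CLIC5 differed in another way, with Treated low against both other groups. NPAS3 had 1.33 and 1.31 TPM in Treated, 17.2 and 17.9 in Day3, and 13.1 and 12.7 in Control libraries (-3.0 ± 0.12). CLIC5 had 9.47 and 9.55 TPM in Treated, 62.2 and 60.7 in Day3, and 64.0 and 72.1 in Control libraries (-2.57 ± 0.19). The peptide transporter SLC15A2 (-2.67 ± 0.36), the tetraspanin TSPAN7 (-2.62 ± 0.36) and GUCY1B3, a subunit of soluble guanylate cyclase (-2.54 ± 0.19), were also lower in Treated than in Day3 cells. Each comparison of Treated with Day3 named in these paragraphs stayed called with any 1 of the 10 libraries left out.

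Control served to place each difference. Of the 2348 genes that were higher in Treated than in Day3 cells, the Control mean lay between the states in 1536 (65.4%), and 953 were also called between Treated and Control alone, 536 between Day3 and Control alone, 245 in both and 614 in neither. Of the 2070 that were lower, Control lay between in 1478 (71.4%), with 957, 248, 106 and 759 genes in the same 4 groups. Against Control, 1875 genes were higher (12.4%) and 1754 lower (11.6%) in Treated cells, and 798 were higher (5.26%) and 1186 lower (7.82%) in Day3 cells. Both comparisons use the same Control libraries, so a high or low Control value moves both in 1 direction, and no test of their overlap is given. With unscaled TPM the counts were 953 higher and 2762 lower in Treated and 786 higher and 703 lower in Day3 cells. With nuclear protein-coding genes alone they were 1304 higher and 3025 lower in Treated and 457 higher and 1453 lower in Day3 cells. Calls against Control were fewer with either Control library left out, and those of Day3 against Control were also fewer with either Day3 library left out. Such a fit leaves 1 library in a group. It therefore cannot tell reliance on that library from the loss of a replicate.

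**Figure D1:**
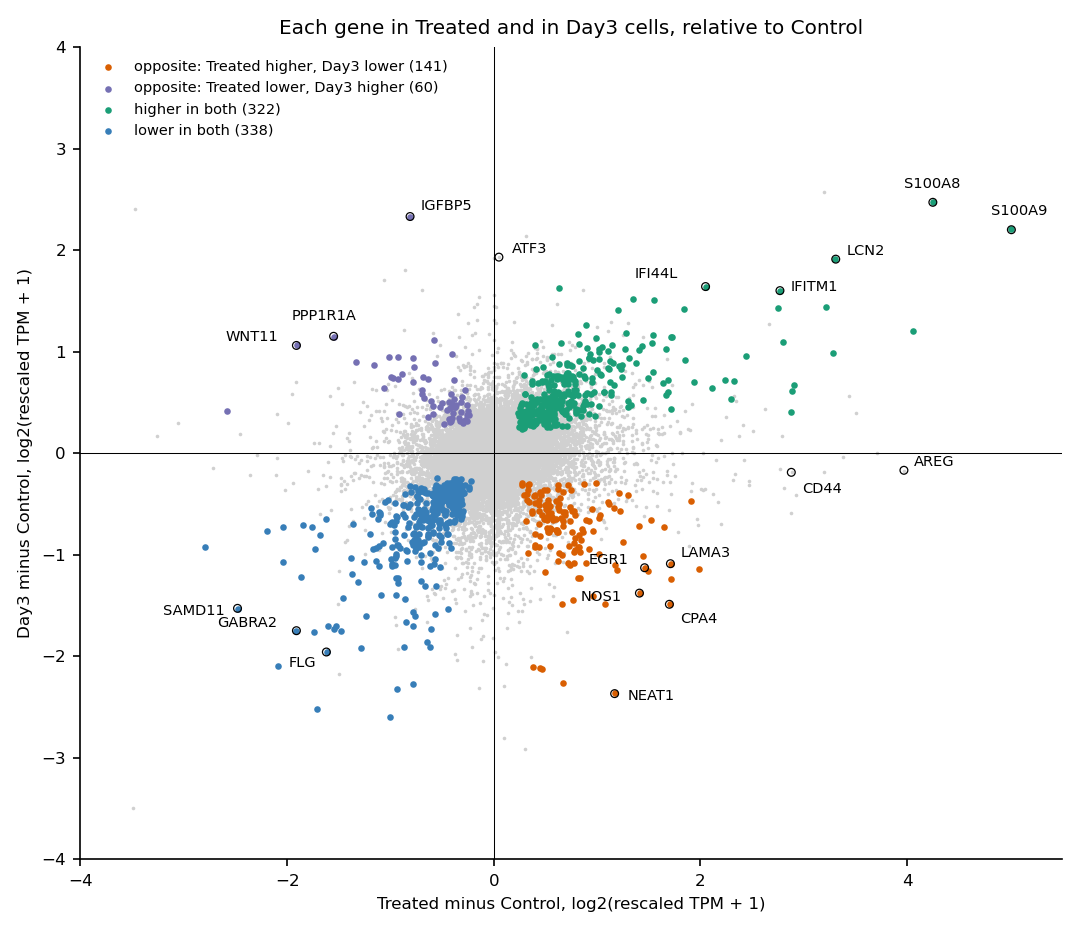
Each of 15167 tested genes is a point, with its difference between Treated and Control on the x axis and between Day3 and Control on the y axis, both in log2(rescaled TPM + 1); coloured points were called in both comparisons, and 7 genes lie outside the axes. The 141 and 60 genes with opposite directions fall at the lower right and upper left, the 322 and 338 genes with shared direction at the upper right and lower left, and AREG and CD44 lie far to the right near the x axis.

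Genes with opposite directions were called against Control in both states. In 141 genes (0.93% of those tested) Treated was higher and Day3 lower than Control, with median differences of 0.65 in Treated and -0.67 in Day3 cells. In 60 genes (0.396%) Treated was lower and Day3 higher, with medians of -0.49 in Treated and 0.5 in Day3 cells. Directions in these classes are set by the way they were chosen, and the values that follow describe them. Without 1 of the Day3 or Control libraries the 141 fell to between 32 (without Control replicate 1) and 58 (without Day3 replicate 2), with 41 without Control replicate 2 and 47 without Day3 replicate 1. The 60 fell to between 6 (without Control replicate 1) and 11 (without Control replicate 2), with 8 without either Day3 library, 30 without either Extracted library and 39 without Treated replicate 1, and numbered 106 and 107 without Day1 replicates 1 and 2. Unscaled TPM gave 52 and 111 genes, a turn in the balance of the classes. In every fit that left out a Treated, Day3 or Control library, 22 of the 141 and 4 of the 60 were called in both comparisons.

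LAMA3 (chr18:23689443-23956222, plus strand), the alpha chain of laminin 332, had 516.9 and 538.0 TPM in Treated, 74.1 and 75.1 in Day3, and 173.3 and 147.6 in Control libraries. It stood above Control in Treated cells (1.71 ± 0.15) and below it in Day3 cells (-1.09 ± 0.15), with no overlap among the 3 groups. FGFBP1, a secreted carrier of fibroblast growth factors, had 196.4 and 180.9 TPM in Treated, 20 and 21.6 in Day3, and 49.7 and 44.3 in Control libraries (1.98 ± 0.10 in Treated and -1.14 ± 0.10 in Day3). The cytokine IL18 had 147.3 and 109.2 TPM in Treated, 19.6 and 19 in Day3, and 51.0 and 38.6 in Control libraries (1.49 ± 0.16 in Treated and -1.16 ± 0.16 in Day3). These 3 had the highest Treated levels among the 8 genes that the naming rule took from this class. NEAT1, CCND1 and MT2A, named with their lists below, belong to the same class at levels above that of IL18. EGR1 (chr5:138465490-138469315, plus strand), the growth-response factor whose upstream sequence is printed above, had 46.9 and 63.9 TPM in Treated, 7.64 and 8.93 in Day3, and 19.2 and 19.2 in Control libraries (1.46 ± 0.16 in Treated and -1.13 ± 0.16 in Day3). CPA4, a carboxypeptidase, had 32.3 and 29.1 TPM in Treated, 1.96 and 3.06 in Day3, and 9.91 and 7.69 in Control libraries (1.7 ± 0.17 in Treated and -1.49 ± 0.17 in Day3). NOS1, the neuronal nitric oxide synthase, had 18.2 and 19.4 TPM in Treated, 1.95 and 1.78 in Day3, and 6.64 and 6.26 in Control libraries. All 6 kept both calls with any 1 library left out, as did ALS2CL. TNNC1, the cardiac and slow-muscle troponin C, had 54.5 and 41.8 TPM in Treated, 3.95 and 7.05 in Day3, and 13.8 and 14 in Control libraries, and lost its Day3 call without Control replicate 1, Control replicate 2 or Day3 replicate 1 (adjusted p up to 0.113).

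In the reverse direction, IGFBP5 and WNT11 were joined by PPP1R1A, an inhibitor subunit of protein phosphatase 1, which had 1.34 and 1.93 TPM in Treated, 14.7 and 17.3 in Day3, and 6.58 and 6.73 in Control libraries (-1.55 ± 0.18 in Treated and 1.15 ± 0.18 in Day3). BBOX1, the last enzyme of carnitine synthesis, had 11.2 and 12.1 TPM in Treated, 62.7 and 54.2 in Day3, and 26.3 and 36.3 in Control libraries. OPRPN, the precursor of the peptide opiorphin, had 7.67 and 6.72 TPM in Treated, 25.2 and 26.6 in Day3, and 14.2 and 11.9 in Control libraries (-0.78 ± 0.11 in Treated and 0.94 ± 0.11 in Day3). In all 3 the groups lay apart in the order Treated, Control, Day3. NREP had 24.3 and 27.4 TPM in Treated, 84.3 and 84.5 in Day3, and 47.4 and 50 in Control libraries, and DPYSL3, a protein of the neuronal cytoskeleton, had 2.02 and 2.28 TPM in Treated, 11.5 and 12.1 in Day3, and 5.54 and 6.53 in Control libraries. IGFBP5, PPP1R1A and OPRPN kept both calls in every fit with 1 library left out. WNT11, BBOX1, DPYSL3, NREP and NAP1L3 each lost the Day3 call without Control replicate 1, Day3 replicate 1 or Day3 replicate 2 (adjusted p up to 0.182), and NAP1L3 also its Treated call without Control replicate 2 or Treated replicate 1 (adjusted p up to 0.0829).

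**Figure D2:**
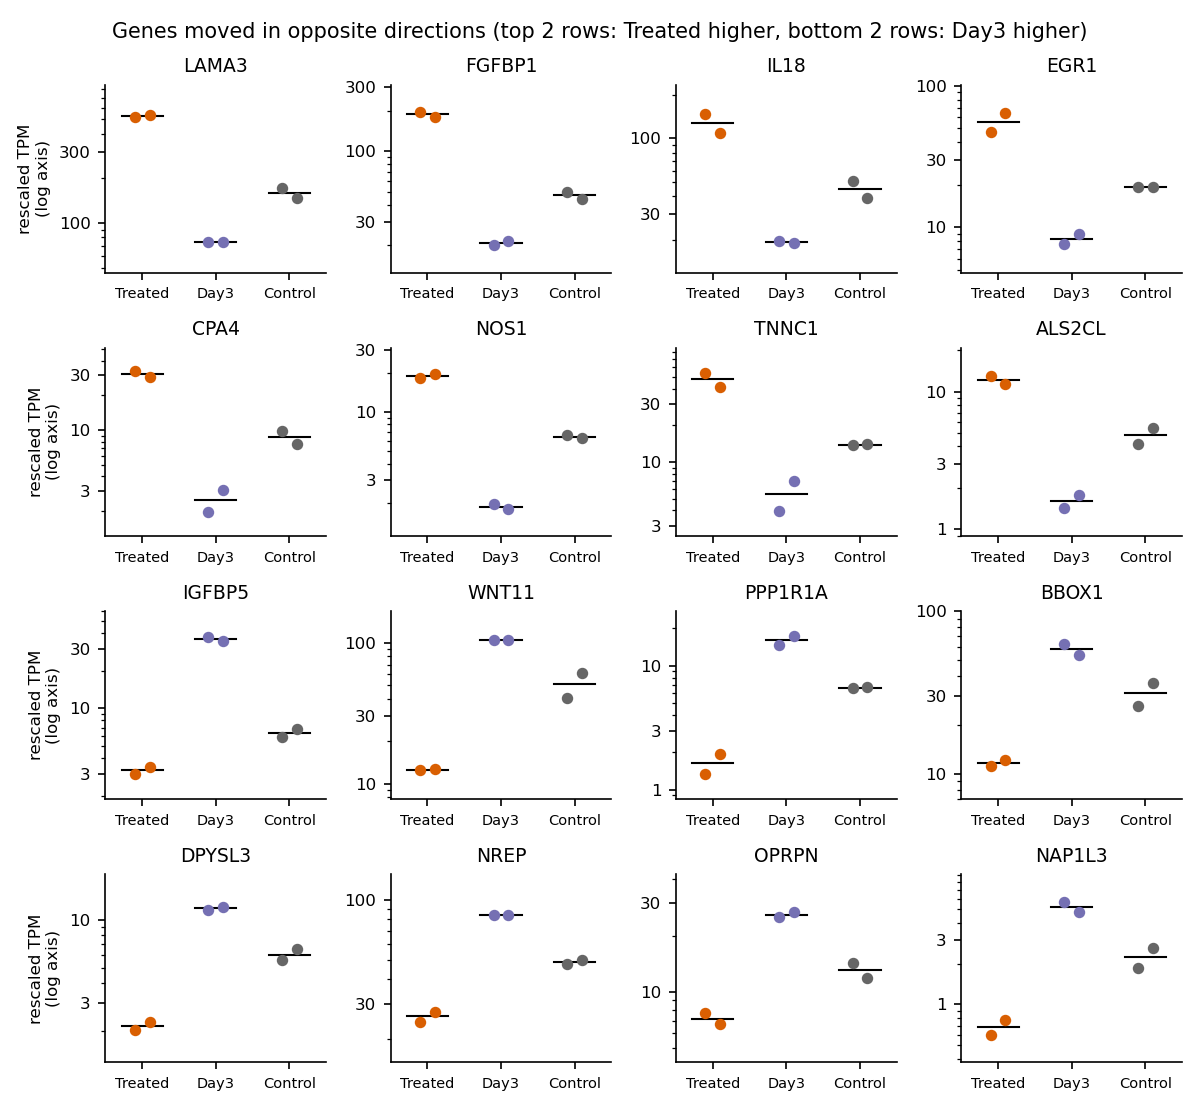
Rescaled TPM on a log axis is shown for each library of the 16 named genes with opposite directions, 1 panel per gene, with Treated, Day3 and Control side by side, points for libraries and short lines for group means. Control lies between the states in every panel, with Treated on top in the 8 genes of the upper rows and Day3 on top in the 8 of the lower rows.

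Genes with a shared direction were more numerous, but both comparisons use the same Control libraries, which move both in 1 direction. Both states were higher than Control in 322 genes (2.12%), with median differences of 0.63 in Treated and 0.52 in Day3 cells, and both were lower in 338 genes (2.23%), with medians of -0.59 in Treated and -0.6 in Day3 cells. Between Treated and Day3, 69 of the 322 were higher and 10 lower in Treated cells, and of the 338, 35 were higher and 36 lower. The other 243 and 267 genes were not called between the states, which does not show that the states were alike in them. Without Control replicates 1 and 2 and Day3 replicates 1 and 2 the 322 became 76, 96, 75 and 69 genes, and the 338 became 100, 106, 118 and 125. Of the 322, 39 kept both calls in every fit that left out a Treated, Day3 or Control library, and of the 338, 62 did. The shared increases numbered 190 with unscaled TPM and 194 with nuclear protein-coding genes alone, and the shared decreases 613 with the second.

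Secreted and cytosolic defence proteins led the shared increases. S100A9 (chr1:153357854-153361027, plus strand), a subunit of calprotectin, had 94.5 and 123.1 TPM in Treated, 12.6 and 16.9 in Day3, and 2.6 and 2.18 in Control libraries. It stood 5.01 ± 0.21 above Control in Treated and 2.2 ± 0.21 above it in Day3 cells, and Treated exceeded Day3 by 2.8 ± 0.21 (adjusted p = 3.46e-05). Its partner S100A8 had 21.9 and 33.2 TPM in Treated, 7.59 and 6.71 in Day3, and 0.804 and 0.194 in Control libraries. LCN2 (chr9:128149071-128153455, plus strand), a lipocalin that binds iron carriers, had 155.7 and 193.5 TPM in Treated, 57.8 and 74.2 in Day3, and 17.5 and 15.8 in Control libraries (3.31 ± 0.18 in Treated and 1.91 ± 0.18 in Day3). Each of these rose in both states and lay higher in Treated, with no overlap. Of the interferon-stimulated genes printed above, IFITM1 had 22.5 and 32.8 TPM in Treated, 11 and 12.0 in Day3, and 2.59 and 3.74 in Control libraries (2.77 ± 0.23 in Treated and 1.6 ± 0.23 in Day3). IFI6 had 18.2 and 23.9 TPM in Treated, 7.49 and 7.97 in Day3, and 1.67 and 2.93 in Control libraries. IFIT1 had 15.5 and 16.2 TPM in Treated, 3.35 and 4.59 in Day3, and 0.609 and 1.05 in Control libraries. IFI44L was closer between the states, with 12.6 and 15.0 TPM in Treated, 9.71 and 10.4 in Day3, and 2.07 and 3.11 in Control libraries (Treated against Day3 0.41, 95% interval -0.31 to 1.13, adjusted p = 0.37). RARRES3, a retinoid-responsive phospholipase, had 6.36 and 4.59 TPM in Treated, 4.85 and 5.64 in Day3, and 1.21 and 1.17 in Control libraries (Treated against Day3 0.04, 95% interval -0.42 to 0.51). IFIT1 lost its Day3 call without Control replicate 1 or Day3 replicate 2 (adjusted p up to 0.0623), and IFI44L without Control replicate 1 or either Day3 library (adjusted p up to 0.0901).

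The shared decreases were led by genes of several kinds. GABRA2, a GABA-A receptor subunit (chr4:46248427-46475230, minus strand), had 6.34 and 7.36 TPM in Treated, 8.52 and 7.07 in Day3, and 29 and 28.1 in Control libraries (-1.91 ± 0.14 in Treated and -1.75 ± 0.14 in Day3). TAGLN, an actin-binding protein of contractile cells, had 3.16 and 2.47 TPM in Treated, 3.05 and 2.44 in Day3, and 10.6 and 12.9 in Control libraries (-1.74 ± 0.24 in Treated and -1.77 ± 0.24 in Day3). COL5A2, a fibrillar collagen chain, had 9.39 and 8.05 TPM in Treated, 8.16 and 6.96 in Day3, and 28.7 and 25.1 in Control libraries (-1.52 ± 0.13 in Treated and -1.71 ± 0.13 in Day3). In these 3 the libraries of Treated and Day3 overlapped, and the 95% intervals of their difference were -0.47 to 0.15, -0.52 to 0.57 and -0.12 to 0.49. FLG, the filament-aggregating protein of keratinocytes, had 17.2 and 15.2 TPM in Treated, 13.8 and 11.3 in Day3, and 47.2 and 56.6 in Control libraries (Treated against Day3 0.35, 95% interval 0.04 to 0.65, adjusted p = 0.0874). SAMD11, PTPRR and ATOH8 were also lower in both states, and EDN2, which encodes endothelin-2, lost its Treated call without Control replicate 1 or Treated replicate 1 and its Day3 call without any 1 of the Day3 or Control libraries (adjusted p up to 0.117 and 0.144).

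**Figure D3:**
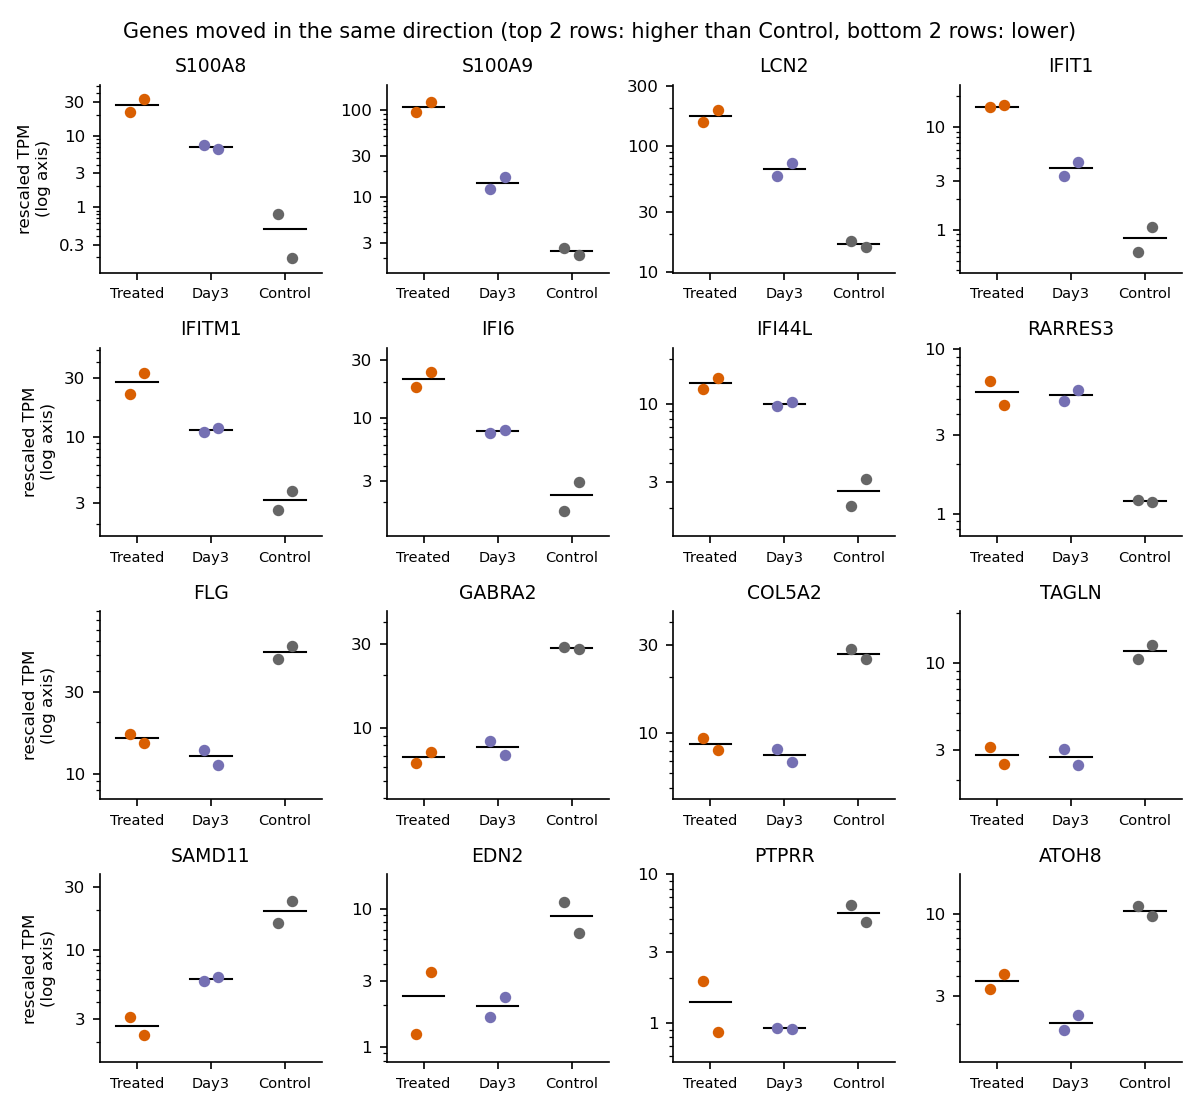
Rescaled TPM on a log axis is shown for each library of the 16 named genes with a shared direction, 1 panel per gene, with Treated, Day3 and Control side by side, points for libraries and short lines for group means. Control is lowest in the 8 genes of the upper rows and highest in the 8 of the lower rows, and in S100A8, S100A9, LCN2, IFITM1, IFIT1, IFI6 and IFI44L both Treated points lie above both Day3 points.

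By role, the growth-factor genes are given first. The counts of members below stand against 15.5% of all tested genes higher and 13.6% lower in Treated than in Day3 cells, 12.4% and 11.6% in Treated against Control, and 5.26% and 7.82% in Day3 against Control. Of 11 tested ligands and receptors of the epidermal growth factor family, 6 were higher in Treated than in Day3 cells and none lower, with a median difference of 0.67. The ligand EREG had 2.89 and 3.03 TPM in Treated, 0.0793 and 0.169 in Day3, and 0.155 and 0.0897 in Control libraries (Treated against Day3 1.82 ± 0.19, adjusted p = 0.000191). TGFA, another ligand, had 16.8 and 18.8 TPM in Treated, 8.17 and 7.61 in Day3, and 10.3 and 10.1 in Control libraries (1.08 ± 0.13, adjusted p = 0.000346). The receptor EGFR had 31.9 and 32.6 TPM in Treated, 13.7 and 13.7 in Day3, and 24.3 and 24.7 in Control libraries (1.18 ± 0.15), and its Day3 call against Control was lost without any 1 of the Day3 or Control libraries (adjusted p up to 0.0652). Against Control the family had 5 members higher and 1 lower in Treated cells (3 higher without Control replicate 2, and none lower without Control replicate 1). In Day3 cells none was higher and 4 were lower, and this count was at most 1 without any 1 of the Day3 or Control libraries and 2 without either Extracted library or with unscaled TPM.

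Genes that answer MAP kinase signalling moved with them. Of 15 feedback genes, which dampen that pathway, 8 were higher in Treated than in Day3 cells and none lower (median 0.44), and 5 without Day3 replicate 1 or either Treated library or with unscaled TPM. The phosphatase gene DUSP5 had 38.3 and 44.9 TPM in Treated, 7.43 and 6.95 in Day3, and 10.4 and 10.3 in Control libraries (Treated against Day3 2.38 ± 0.13, adjusted p = 6.54e-06). SPRY1, a Sprouty inhibitor, had 29.2 and 31.4 TPM in Treated, 8.91 and 8.24 in Day3, and 12.4 and 13.5 in Control libraries (1.71 ± 0.12, adjusted p = 2.11e-05). PHLDA1 had 3.06 and 3.1 TPM in Treated, 0.494 and 0.351 in Day3, and 0.693 and 1.0 in Control libraries (1.52 ± 0.18). In all 3 Treated lay above both other groups, and the Day3 calls of DUSP5 and SPRY1 against Control were each lost without any 1 Control or Day3 library (adjusted p up to 0.184). Of 19 immediate-early genes, 9 were higher in Treated than in Day3 cells and 2 lower (median 0.38). FOS had 26.2 and 29.1 TPM in Treated, 4.86 and 5.8 in Day3, and 8.27 and 9.64 in Control libraries (2.18 ± 0.15, adjusted p = 1.92e-05). FOSL1, another AP-1 subunit, had 24.0 and 26.3 TPM in Treated, 5.95 and 6.65 in Day3, and 4.21 and 4.04 in Control libraries (1.84 ± 0.24). ATF3, a factor of the integrated stress response, stood out in the reverse direction, with 16.1 and 13 TPM in Treated, 53.6 and 58.2 in Day3, and 13.8 and 14 in Control libraries (-1.88 ± 0.16, adjusted p = 6.76e-05). Treated and Control were close in ATF3 (0.05 ± 0.16), and Day3 exceeded Control by 1.93 ± 0.16. The other immediate-early gene that was lower in Treated, KLF6, was named after its values were seen, and the count of 2 was 1 without either Day3 library or Treated replicate 2.

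Genes of attachment to the basement membrane were mostly higher in Treated than in Day3 cells. Of 21 integrin, laminin and hemidesmosome genes, 15 were higher in Treated than in Day3 cells and 1 was lower (median 0.76). Against Control, 8 were higher and 1 lower in Treated cells (median 0.32), while none was higher and 6 were lower in Day3 cells (median -0.32). ITGA3, the laminin-binding integrin chain, had 203.7 and 254.4 TPM in Treated, 67.8 and 68.4 in Day3, and 104.1 and 82.5 in Control libraries (Treated against Day3 1.73 ± 0.20, adjusted p = 0.000323). PLEC, the plectin that ties hemidesmosomes to keratin, had 56.9 and 51.0 TPM in Treated, 14.7 and 16.6 in Day3, and 24.4 and 30.3 in Control libraries (1.72 ± 0.12). LAMA5 had 169.5 and 177.1 TPM in Treated, 52.8 and 59.0 in Day3, and 140.9 and 173.7 in Control libraries (1.62 ± 0.12). PLEC thus moved in opposite directions around Control, whereas LAMA5 overlapped between Treated and Control and was low in Day3 alone (-1.47 ± 0.12). The exception was ITGB5, with 168.5 and 104.0 TPM in Treated, 336.5 and 340.8 in Day3, and 402.2 and 468.1 in Control libraries (-1.35 ± 0.20, adjusted p = 0.0013).

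Matrix genes and keratins did likewise. Of 25 matrix and remodelling genes, 18 were higher in Treated than in Day3 cells and 2 lower (median 0.84). PLAU, the urokinase that activates plasmin, had 226.6 and 230.1 TPM in Treated, 35.4 and 40.7 in Day3, and 76.0 and 56.9 in Control libraries (2.56 ± 0.23, adjusted p = 9.06e-05). LOXL2, an enzyme that crosslinks collagen, had 14.4 and 14.5 TPM in Treated, 3.64 and 3.29 in Day3, and 5.51 and 5.75 in Control libraries (1.79 ± 0.12). The matrix protease MMP7 had 7.49 and 6.01 TPM in Treated, 1.19 and 1.55 in Day3, and 0.0729 and 0.149 in Control libraries (1.71 ± 0.24). FN1, fibronectin, had 240.3 and 229.2 TPM in Treated, 70.0 and 72.2 in Day3, and 210.5 and 216.8 in Control libraries (1.71 ± 0.08, adjusted p = 4.74e-06). FN1 was low in Day3 alone (-1.57 ± 0.08 against Control), and the gelatinase MMP2 was high in Treated alone, with 17.1 and 20.4 TPM in Treated, 5.79 and 5.25 in Day3, and 4.9 and 4.4 in Control libraries (1.6 ± 0.15). LOX, another crosslinking enzyme, was in reverse and had 0.779 and 0.955 TPM in Treated, 3.25 and 3.06 in Day3, and 3.76 and 3.75 in Control libraries (-1.16 ± 0.20, adjusted p = 0.00298). Of 15 keratin and vimentin genes, 12 keratins were higher in Treated than in Day3 cells and vimentin was lower (median 1.06). KRT4, a keratin of mucosal epithelium, had 124.5 and 120.0 TPM in Treated, 24.0 and 25.6 in Day3, and 36.5 and 37.6 in Control libraries (2.26 ± 0.23). KRT6A had 11.6 and 12.7 TPM in Treated, 2.61 and 1.51 in Day3, and 3.85 and 4.08 in Control libraries (2.13 ± 0.17). VIM had 2.54 and 2.32 TPM in Treated, 11.1 and 11.2 in Day3, and 1.69 and 1.83 in Control libraries (-1.82 ± 0.15, adjusted p = 5.25e-05), and so was high in Day3 alone.

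Many YAP targets and contractile genes were lower than Control in Day3 cells, and some in Treated cells. Of 17 YAP targets, 8 were higher in Treated than in Day3 cells and 2 lower (median 0.35, with none lower without Day3 replicate 1 and 1 without Day3 replicate 2 or Treated replicate 1). Against Control, 2 were higher and 5 lower in Treated (median -0.12), and none was higher and 11 were lower in Day3 cells (median -0.65, with 7 lower without Control replicate 2 or Day3 replicate 2). The lower count in Treated was 2 without Control replicate 2. CYR61, a secreted matricellular protein, had 131.2 and 121.0 TPM in Treated, 47.3 and 50.9 in Day3, and 149.1 and 128.3 in Control libraries (Treated against Day3 1.34 ± 0.11, adjusted p = 4.34e-05). CTGF, its relative, had 138.7 and 142.3 TPM in Treated, 57.1 and 62.0 in Day3, and 96.7 and 92.1 in Control libraries (1.23 ± 0.09). The receptor kinase AXL had 6.17 and 7.01 TPM in Treated, 0.995 and 0.823 in Day3, and 1.31 and 1.33 in Control libraries (1.99 ± 0.16). Thus CYR61 overlapped between Treated and Control, CTGF stood on opposite sides of Control, and AXL was high in Treated alone. Of 23 tropomyosin and contractile genes, 11 were higher in Treated than in Day3 cells and 3 lower (median 0.39, with 1 lower without either Day3 library). TPM2, a tropomyosin, had 24.1 and 18.9 TPM in Treated, 1.78 and 2.05 in Day3, and 12.2 and 13.9 in Control libraries (2.94 ± 0.15, adjusted p = 4.74e-06). ACTA2, the actin of smooth muscle, had 4.36 and 3.85 TPM in Treated, 0.602 and 1.05 in Day3, and 2.43 and 1.08 in Control libraries (1.49 ± 0.24). TPM2 lay on opposite sides of Control in the 2 states, and the Treated call of TPM2 against Control was lost without Control replicate 1 or Treated replicate 1 (adjusted p up to 0.0782). In Treated cells 3 contractile genes were higher and 8 lower than Control (median -0.08), and with unscaled TPM 1 was higher and 11 were lower. The 8 became 5 without Treated replicate 2, Control replicate 1, Extracted replicate 1 or either Day3 library. In Day3 cells 14 contractile genes were lower than Control and none was higher, and 8 or 9 were lower without either Control library or Day3 replicate 1.

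TGF-beta and BMP targets were a group in which both states lay below Control. Of 16 tested, 10 were lower and 4 higher than Control in Treated cells (median -0.79), and 9 were lower and none higher in Day3 cells (median -0.7), 8 of them in both. Between the states 6 were higher and 4 lower in Treated, and the median of 0.07 became -0.16 with unscaled TPM. ID2, a target of BMP signalling, had 67.4 and 76.2 TPM in Treated, 190.5 and 197.7 in Day3, and 321.4 and 341.0 in Control libraries (Treated against Day3 -1.42 ± 0.13, adjusted p = 8.98e-05). BMPER, a secreted BMP regulator, had 6.32 and 4.86 TPM in Treated, 2.18 and 0.969 in Day3, and 10.3 and 12.9 in Control libraries (1.39 ± 0.23, adjusted p = 0.00209). ID2 was thus lowest in Treated and BMPER lowest in Day3. GDF15, a stress-induced member of the family, had 15.4 and 18.9 TPM in Treated, 3.04 and 3.14 in Day3, and 2.22 and 2.54 in Control libraries (2.14 ± 0.25). The Day3 call of ID2 was lost without Control replicate 2 or Day3 replicate 1 (adjusted p up to 0.0565), and the Treated call of BMPER without Control replicate 2 or Treated replicate 2 (adjusted p up to 0.114).

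Among immune-response genes, interferon-stimulated genes were raised in both states and more in Treated cells. Of 25 tested, 21 were higher in Treated than in Day3 cells and none lower (median 0.85), with 13 without Day3 replicate 1 and 14 with unscaled TPM. Against Control, 23 were higher and none lower in Treated (median 1.44), and 15 were higher and 1 lower in Day3 cells (median 0.52). All 15 were among the genes shared by both states, and the 1 lower, STAT2, was named after its values were seen and was lost without any 1 Control, Day3 or Extracted library. The Day3 count of 15 became 6, 8, 8 and 4 without Control replicates 1 and 2 and Day3 replicates 1 and 2. Summed over the 25 genes, Treated libraries held 1109 and 1333 TPM, Day3 748.1 and 854.0, and Control 504.8 and 494.9. ISG15, a ubiquitin-like protein, had 100.9 and 98.3 TPM in Treated, 29.8 and 34.1 in Day3, and 19.5 and 18.6 in Control libraries (Treated against Day3 1.61 ± 0.09, adjusted p = 1.25e-05). IFI27 had 39.3 and 48.4 TPM in Treated, 5.67 and 6.9 in Day3, and 6.41 and 4.62 in Control libraries (2.62 ± 0.21), and unlike ISG15 it overlapped between Day3 and Control. BST2, tetherin, had 19.9 and 19.2 TPM in Treated, 2.77 and 3.66 in Day3, and 1.4 and 0.871 in Control libraries (2.3 ± 0.19), and its Day3 call was lost without Control replicate 2 or Day3 replicate 2 (adjusted p up to 0.089). The macrophage-rich marker CD68 was also higher in Treated than in Day3 cells, with 6.5 and 9.06 TPM in Treated, 1.35 and 2.28 in Day3, and 5.3 and 2.57 in Control libraries (1.65 ± 0.33, adjusted p = 0.00571, and 0.0512 without Day3 replicate 1), while PTPRC, the marker of all leukocytes, was at most 0.306 TPM as deposited. All libraries came from the OVCAR-3 line, and a link between CD68 and the interferon differences was not tested.

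Defence proteins and antigen presentation shared that direction with different weights. Of 20 secreted defence and S100 genes, 14 were higher in Treated than in Day3 cells and 1 lower (median 1.3). In Treated cells 18 were higher than Control and 1 lower (none lower without Control replicate 1), and in Day3 cells 13 were higher and 1 lower (8 higher without Day3 replicate 2, and none lower without Control replicate 1 or either Day3 library). PI3, the elastase inhibitor elafin, had 145.5 and 173.6 TPM in Treated, 19 and 23.6 in Day3, and 9.02 and 8.21 in Control libraries (Treated against Day3 2.85 ± 0.19, adjusted p = 1.92e-05). S100A14 had 287.7 and 258.4 TPM in Treated, 53.7 and 60.3 in Day3, and 35.3 and 35.7 in Control libraries (2.24 ± 0.11), with its Day3 call lost without Day3 replicate 2 (adjusted p = 0.0507). WFDC2, the ovarian serum marker HE4, was the 1 gene in reverse, with 668.4 and 740.4 TPM in Treated, 1070 and 1172 in Day3, and 531.2 and 536.9 in Control libraries (-0.67 ± 0.11, adjusted p = 0.00198). Of 12 genes for MHC class I and antigen processing, 8 were higher than Control in Treated cells and 7 in Day3 cells, with none lower. Without either Control or either Treated library 3 or 4 were higher in Treated (4 with unscaled TPM), and without either Control or either Day3 library 1 to 3 were higher in Day3. Between the states 1 was higher and 1 lower in Treated, TAP2 and HLA-C, and each call was lost on leaving out a library in at least 3 of 10 fits. The median there was 0.07, and -0.16 with unscaled TPM, and reads of HLA genes may be shared among them.

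NF-kB targets and chemokines separated the states instead. Of 20 tested, 13 were higher in Treated than in Day3 cells and none lower (median 1.22). Against Control, 12 were higher and none lower in Treated cells (7 without Control replicate 2 or Treated replicate 2, 8 with unscaled TPM), and none was higher and 4 were lower in Day3 cells (2 without Control replicate 1 or Day3 replicate 2). CXCL1 had 181.7 and 198.3 TPM in Treated, 54.4 and 66.2 in Day3, and 53.5 and 48.3 in Control libraries (Treated against Day3 1.64 ± 0.17, adjusted p = 0.000175). CXCL2 had 30.9 and 32.0 TPM in Treated, 6.37 and 5.91 in Day3, and 4.31 and 4.24 in Control libraries (2.19 ± 0.24, adjusted p = 0.000249). CXCL8, a neutrophil attractant, had 31.3 and 34.2 TPM in Treated, 8.67 and 10.6 in Day3, and 12.3 and 10.2 in Control libraries (1.67 ± 0.24). CCL20, which attracts lymphocytes and dendritic cells, had 5.1 and 7.85 TPM in Treated, 1.33 and 1.33 in Day3, and 3.05 and 1.64 in Control libraries (1.66 ± 0.32). These chemokines were thus higher in Treated than in Day3 or Control libraries, and CXCL1 and CXCL2 are close copies whose reads may be shared. Summed over the 20 genes, Day1 libraries held 1207 and 914.7 TPM, Treated 1117 and 1141, and Day3 635.8 and 706.0. Day1 thus overlapped with Treated on this sum, which was not tested. LIF, a cytokine of the IL6 family, had 36.4 and 36.2 TPM in Treated, 11.3 and 10.7 in Day3, and 31.5 and 29 in Control libraries (1.63 ± 0.13), and was low in Day3 alone (-1.38 ± 0.13 against Control). IL6 had 10.1 and 11.9 TPM in Treated, 2.12 and 1.12 in Day3, and 7.66 and 4.69 in Control libraries (2.21 ± 0.24, adjusted p = 0.000235).

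**Figure D4:**
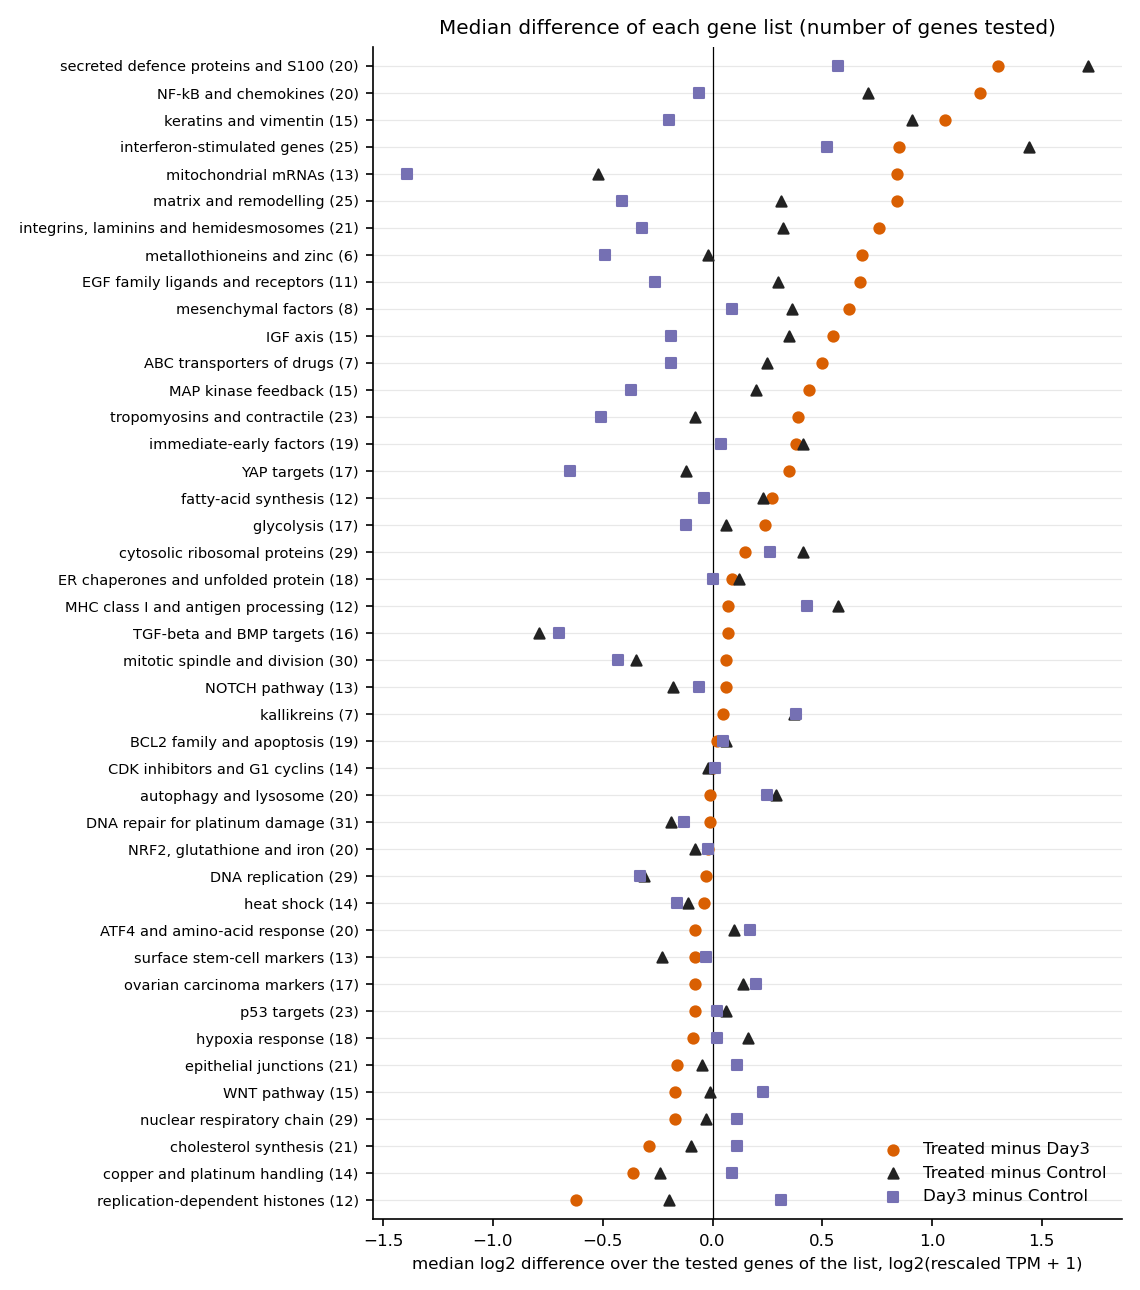
For 43 gene lists the median difference of the tested members is drawn in log2(rescaled TPM + 1), with circles for Treated against Day3, triangles for Treated against Control and squares for Day3 against Control. Defence proteins and interferon-stimulated genes lie above 0 in all 3 comparisons, and integrins, matrix genes and keratins lie above 0 in Treated and below 0 in Day3 against Control; with unscaled TPM 8, 6 and 3 of the 43 medians change sign in Treated against Day3, Treated against Control and Day3 against Control.

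Division genes were lower than Control in both states. Of 30 mitotic genes, 17 were lower and none higher in Treated (median -0.35), and 22 were lower and none higher in Day3 cells (median -0.43), 12 of them in both. Without Control replicate 1 the Treated count was 10, and without Control replicates 1 and 2 and Day3 replicates 1 and 2 the Day3 count was 6, 12, 9 and 6. Between the states 5 were higher and 2 lower in Treated, with a median of 0.06 that became -0.17 with unscaled TPM, where none was higher and 7 were lower. With unscaled TPM the Day3 count against Control was 11. The 5 became 2 without Day3 replicate 2 and 1 without Treated replicate 1, and the 2 became 0 without Treated replicate 2 or any 1 Control, Day3 or Extracted library and 1 without Treated replicate 1. CENPF, a kinetochore protein, had 86.1 and 55.0 TPM in Treated, 37.2 and 41.9 in Day3, and 65.2 and 64.1 in Control libraries (0.79 ± 0.20). HMMR, a spindle protein, had 47.0 and 36.7 TPM in Treated, 27.2 and 25.4 in Day3, and 35.7 and 33.6 in Control libraries (0.64 ± 0.14). The first was lost without Day3 replicate 1 or Treated replicate 1 (adjusted p up to 0.0976) and the second without Day3 replicate 2 or Treated replicate 1 (adjusted p up to 0.0568). MKI67, the proliferation marker Ki-67, had 51.5 and 51.6 TPM in Treated, 37.9 and 31.2 in Day3, and 63.1 and 67.3 in Control libraries (Treated against Day3 0.57 ± 0.14, adjusted p = 0.0168). It was not called between Treated and Control (-0.33 ± 0.14, adjusted p = 0.124) and lay below Control in Day3 cells (-0.9 ± 0.14). The difference of MKI67 between the states was lost without Day3 replicate 2 or either Treated library (adjusted p up to 0.121), and that between Day3 and Control without Day3 replicate 2 (adjusted p = 0.0506). TOP2A, a topoisomerase of dividing cells, had 91.2 and 73.7 TPM in Treated, 52.7 and 52.2 in Day3, and 97.7 and 89.5 in Control libraries (0.63 ± 0.14), and was called neither between the states without Treated replicate 1 (adjusted p = 0.0546) nor between Day3 and Control without Control replicate 1 (adjusted p = 0.0575). Of 29 DNA replication genes, 13 were lower than Control in Treated and 11 in Day3 cells with none higher, against 7 and 8 in Treated without either Control library and 2 to 4 in Day3 without any 1 Day3 or Control library (4 with unscaled TPM).

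Cyclin and inhibitor genes were mixed. Of 14 tested, 4 were higher and 2 lower in Treated than in Day3 cells (2 higher without Day3 replicate 1 or Treated replicate 2, and none lower without either Day3 library), and 2 were higher and 4 lower with unscaled TPM. CCND1, cyclin D1, separated the states, with 164.6 and 166.4 TPM in Treated, 51.9 and 55.3 in Day3, and 107.5 and 106.1 in Control libraries (1.61 ± 0.13, adjusted p = 5.12e-05). CDKN1C, the p57 inhibitor of cyclin-dependent kinases, had 28.0 and 35.5 TPM in Treated, 16.4 and 17.0 in Day3, and 14.1 and 15.9 in Control libraries (0.88 ± 0.12). CDKN1A, the p21 inhibitor of cyclin-dependent kinases, had 6.29 and 6.33 TPM in Treated, 9.31 and 10.4 in Day3, and 3.51 and 5.63 in Control libraries (-0.57 ± 0.17, adjusted p = 0.0328), a call lost without any 1 of the Treated or Day3 libraries (adjusted p up to 0.159). Of 12 replication-dependent histone genes, 8 were lower in Treated than in Day3 cells and none higher (median -0.62), among them HIST1H2BJ (-1.06 ± 0.21) and HIST1H2AC, the second with 39.6 and 39.4 TPM in Treated, 75.9 and 77.1 in Day3, and 44.0 and 46.5 in Control libraries. Against Control, 3 of these histone genes were lower and none higher in Treated cells (median -0.2). In Day3 cells 5 were higher than Control and none lower (median 0.31), and fewer were higher without any 1 Control or Day3 library. The Treated count was also smaller without either Control library or Treated replicate 1. Histone genes are close copies, and the sources used here do not say whether RNA was selected by its poly(A) tail, which most histone mRNAs lack.

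Genes tied to platinum damage showed no common direction between the states. Of 31 DNA repair genes, 4 were higher and 3 lower in Treated than in Day3 cells (median -0.01), against 15.5% higher and 13.6% lower over all genes tested. The counts were 1 and 0 without Day3 replicate 1, 2 and 1 without Day3 replicate 2, 1 higher without Treated replicate 1 and 1 lower without Treated replicate 2, and with unscaled TPM they were 1 and 7. Against Control, none of the 31 was higher in either state. In Treated cells 6 were lower (median -0.19) and in Day3 cells 4 (median -0.13), 3 of them in both. Over all genes tested, 11.6% and 7.82% were lower. With unscaled TPM 10 and 2 of the 31 were lower. ERCC5, an endonuclease of nucleotide excision repair, had 13.6 and 10.9 TPM in Treated, 4.51 and 4.53 in Day3, and 6.21 and 9.9 in Control libraries (Treated against Day3 1.25 ± 0.21, adjusted p = 0.0021). Of 23 p53 targets, 6 were higher and 5 lower in Treated than in Day3 cells (median -0.08, with 3 lower without Day3 replicate 1). FAS, a death receptor, had 17.2 and 15.0 TPM in Treated, 3.72 and 4.2 in Day3, and 5.47 and 4.65 in Control libraries (1.79 ± 0.17, adjusted p = 0.000103). The kinase PLK3 had 8.19 and 8.66 TPM in Treated, 2.03 and 1.97 in Day3, and 3.22 and 5.3 in Control libraries (1.65 ± 0.21). GADD45A, a growth-arrest protein, had 44.2 and 38.4 TPM in Treated, 19.8 and 21.6 in Day3, and 39.7 and 37.7 in Control libraries (0.96 ± 0.11), while TP53INP1 had 14.3 and 16.9 TPM in Treated, 29.2 and 27.3 in Day3, and 13.4 and 16.3 in Control libraries (-0.82 ± 0.13). Thus FAS was high in Treated alone, GADD45A low in Day3 alone and TP53INP1 high in Day3 alone.

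Genes of cell death and of platinum and drug transport were also mixed. Of 19 BCL2-family and apoptosis genes, 2 were higher and 6 lower in Treated than in Day3 cells (median 0.02, and -0.2 with unscaled TPM), and 2, 2 and 3 were lower without Day3 replicates 1 and 2 and Treated replicate 2 and 1 higher without any of these, with the pro-apoptotic BMF at 16.4 and 18.4 TPM in Treated, 54.8 and 51.0 in Day3, and 35.2 and 44.0 in Control libraries (-1.56 ± 0.16). Of 14 copper and platinum handling genes, 1 was higher and 6 were lower in Treated than in Day3 cells (median -0.36), with 2, 1 and 3 lower without Day3 replicates 1 and 2 and Treated replicate 2 and 2 higher without either Day1 library. SLC31A1, the copper transporter through which cisplatin can enter cells, had 8.61 and 9.87 TPM in Treated, 16.8 and 16 in Day3, and 13.8 and 12.9 in Control libraries (-0.76 ± 0.10, adjusted p = 0.000775). Of 7 tested ABC transporters, 4 were higher and 1 lower (2 and 0 without either Day3 library, none lower without Treated replicate 1, and 2 lower without either Day1 library or Treated replicate 2), and with unscaled TPM 1 was higher and 2 lower. ABCC3, a hepatic-type exporter, differed by 0.83 ± 0.20, ABCA3, a lipid transporter, by -0.65 ± 0.19 and ABCA2 by 0.60 ± 0.12. The difference of ABCC3 was lost without Day3 replicate 2 or Treated replicate 2, that of ABCA3 without either Day3 library or Treated replicate 1, and that of ABCA2 without Day3 replicate 1 (adjusted p up to 0.182). The drug exporter ABCC1 was at 27.2 and 28.4 TPM in Treated, 19.1 and 17.5 in Day3, and 23.6 and 23.9 in Control libraries (0.58 ± 0.10). ABCB1, the P-glycoprotein exporter, was below the filter, with at most 0.251 TPM as deposited in these 6 libraries. Of 6 metallothionein and zinc genes, 4 were higher and none lower, led by the metal binder MT2A with 165.5 and 176.9 TPM in Treated, 27.7 and 36.9 in Day3, and 51.8 and 55.9 in Control libraries (2.38 ± 0.20, adjusted p = 5.25e-05), and metallothionein genes are close copies. The count of 4 had 1 lower gene beside it without either Day1 library.

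Stress and metabolic lists gave counts that depend on the scaling, and 15.5% of all genes were higher and 13.6% lower in Treated than in Day3 cells. GPX4, which reduces lipid peroxides, had 596.3 and 648.4 TPM in Treated, 356.6 and 394.0 in Day3, and 343.3 and 356.7 in Control libraries (0.73 ± 0.09, adjusted p = 0.000491) among 20 NRF2, glutathione and iron genes, of which 5 were higher and 4 lower (none and 2 lower without Day3 replicates 1 and 2). In the same list AKR1C1, a reductase, differed by 1.04 ± 0.27 (lost without Day3 replicate 2 or Treated replicate 2, adjusted p up to 0.132) and TKT, transketolase, by 0.60 ± 0.07. FTH1, ferritin heavy chain, rose in both states, with 19349 and 19528 TPM in Treated, 12798 and 13513 in Day3, and 8699 and 8995 in Control libraries. SLC7A5, an amino-acid transporter, had 139.9 and 177.7 TPM in Treated, 80.8 and 79.1 in Day3, and 171.8 and 159.7 in Control libraries (0.97 ± 0.13) among 20 ATF4-response genes of which 3 were higher and 4 lower (2 lower without either Day3 library or Treated replicate 1). Of 14 heat-shock genes, 2 were higher and 1 lower (none lower without Treated replicate 2 or any 1 Control, Day3 or Extracted library, and 2 without Treated replicate 1), with the small chaperone CRYAB at 438.3 and 469.9 TPM in Treated, 168.9 and 205.1 in Day3, and 187.9 and 132.8 in Control libraries (1.28 ± 0.16). Of 21 cholesterol-synthesis genes, 2 were higher and 8 lower in Treated than in Day3 cells (median -0.29, with 4 lower without either Day3 library), and of 12 fatty-acid genes 4 were higher and 1 lower (1, 2 and 2 higher without Day3 replicates 1 and 2 and Treated replicate 2, and 2 lower without the last). FASN, the fatty-acid synthase, had 116.7 and 138.7 TPM in Treated, 57.7 and 60.6 in Day3, and 103.7 and 108.9 in Control libraries (1.09 ± 0.09, adjusted p = 5.25e-05). Of 17 glycolysis genes, 6 were higher and 1 lower (2 and 0 without Day3 replicate 1, none lower without Treated replicate 1), with PFKP, a phosphofructokinase, at 24.7 and 21.4 TPM in Treated, 7.54 and 9.41 in Day3, and 11.1 and 9.1 in Control libraries (1.35 ± 0.14). Of 20 autophagy and lysosome genes, 2 were higher and 6 lower (1 higher without Treated replicate 2 or any 1 Control or Day3 library), and the protease CTSB had 1123 and 1243 TPM in Treated, 499.5 and 534.7 in Day3, and 433.3 and 429.5 in Control libraries (1.19 ± 0.08, adjusted p = 2.11e-05). CTSB thus went against most of the called members of its list. Of 29 nuclear-encoded respiratory-chain genes, 1 was higher and 7 lower in Treated than in Day3 cells (median -0.17), with 1, 3 and 3 lower without Day3 replicates 1 and 2 and Treated replicate 1 and 2 higher without Treated replicate 1 or either Day1 library. Of 18 genes of ER chaperones and the unfolded protein response, 5 were higher and 1 lower (1, 2 and 3 higher without Day3 replicates 1 and 2 and Treated replicate 1), and of 18 hypoxia genes, 2 were higher and 3 lower, close to the shares over all genes. With unscaled TPM, where more of all genes were lower, the respiratory-chain counts were 1 higher and 19 lower (median -0.4) and the cholesterol counts 2 and 16 (median -0.51). The ER chaperone counts were 0 higher and 2 lower, with a median that turned to -0.13, against 0.09 on the rescaled values. Glycolysis then had 3 higher and 5 lower, fatty-acid synthesis 1 and 2, and autophagy and lysosome 1 and 8. The ATF4 response had 1 higher and 7 lower, heat shock 2 and 4, hypoxia 2 and 7, and NRF2, glutathione and iron 4 and 6.

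Mitochondrial and nuclear-retained RNAs were lower in Day3 cells than in Treated or Control cells. Of the 13 mitochondrial mRNAs, 11 were higher in Treated than in Day3 cells and none lower (median 0.84), and all 13 were lower than Control in Day3 cells (median -1.39). The Treated count was 3 without Day3 replicate 1 or Treated replicate 2 and 5 without Treated replicate 1, and the Day3 count was 5, 8 and 4 without Control replicates 1 and 2 and Day3 replicate 1. Against Control, 3 were lower in Treated cells, a count of 1 without either Control or either Treated library and of 10 without either Day1 library. MT-ND6, a complex I subunit and the only mRNA of the light strand, had 134.8 and 108.7 TPM in Treated, 37.1 and 41.3 in Day3, and 226.5 and 261.0 in Control libraries (1.6 ± 0.17, adjusted p = 0.000179), and without a stated strand its reads cannot be told from those of the heavy strand. MT-CO3, a subunit of cytochrome oxidase, had 13153 and 16452 TPM in Treated, 5102 and 6887 in Day3, and 16180 and 15261 in Control libraries (1.31 ± 0.24). MT-ND3 had 7180 and 7883 TPM in Treated, 3143 and 3502 in Day3, and 8702 and 8975 in Control libraries (1.18 ± 0.22, adjusted p = 0.00355). NEAT1, the long RNA that builds nuclear paraspeckles, had 250.7 and 226.6 TPM in Treated, 21.2 and 18.0 in Day3, and 103.4 and 106.6 in Control libraries (3.54 ± 0.14, adjusted p = 1.79e-06). MALAT1, a nuclear-speckle RNA, had 302.0 and 196.4 TPM in Treated, 65.4 and 56.4 in Day3, and 168.1 and 158.0 in Control libraries (1.99 ± 0.21). NEAT1 was thus on opposite sides of Control, while MALAT1 was low in Day3 (-1.41 ± 0.21) and not called in Treated (0.58 ± 0.21, adjusted p = 0.0715). The share of mitochondrial mRNA moved with these RNAs, and its part in the differences was not tested. Of 29 ribosomal protein genes, 21 were higher than Control in Treated and 12 in Day3 cells with none lower, and the Day3 count was 0 without any 1 Day3 or Control library and 3 without either Extracted library. Between the states 12 were higher in Treated, 1 and 4 without Day3 replicates 1 and 2, and with unscaled TPM 1 was higher and 4 lower, with a median of -0.08 in place of 0.15.

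Cell-fate pathways are described through single genes, beside 15.5% of all genes higher and 13.6% lower. Of 15 insulin-like growth factor genes, 6 were higher and 3 lower in Treated than in Day3 cells (3 higher without Day3 replicate 2, and 1 lower without any 1 Day3 or Treated library). IRS2, an adaptor of the insulin receptors, had 32.4 and 41.2 TPM in Treated, 11.2 and 11.7 in Day3, and 18.3 and 19.3 in Control libraries (1.59 ± 0.12, adjusted p = 3.03e-05), against the fall of IGFBP5. Of 15 WNT genes, 4 were higher and 3 lower, and WNT7A, a ligand, had 5.54 and 5.22 TPM in Treated, 0.911 and 0.867 in Day3, and 1.46 and 1.44 in Control libraries (1.76 ± 0.19), the reverse of WNT11. Of 13 NOTCH genes, 4 were higher and 1 lower (2 higher without either Control library or Day3 replicate 2, and 1 higher without Day3 replicate 1 or either Treated library), the lower being HEY2, a NOTCH target, with 1.21 and 1.72 TPM in Treated, 7.49 and 7.7 in Day3, and 3.75 and 5.53 in Control libraries (-1.81 ± 0.22). Of 21 epithelial junction genes, 4 were higher and 7 lower (1 higher and 2 lower without Day3 replicate 1, 2 lower without Day3 replicate 2 and 3 lower without Treated replicate 1). CLDN1, a claudin of tight junctions, had 142.0 and 147.4 TPM in Treated, 73.6 and 79.9 in Day3, and 155.2 and 133.4 in Control libraries (0.91 ± 0.16). TJP1, a scaffold of the same junctions, had 42.2 and 39.1 TPM in Treated, 73.1 and 63.4 in Day3, and 66.0 and 67.9 in Control libraries (-0.73 ± 0.14). Of 8 mesenchymal genes, 5 were higher and 2 lower (median 0.62). The 2 lower genes, VIM and CDH2, thus went against most of the list. CDH2, which encodes N-cadherin, had 1.61 and 2.63 TPM in Treated, 6.55 and 5.64 in Day3, and 5.91 and 6.52 in Control libraries (-1.2 ± 0.17). Of 13 surface stem-cell markers, 2 were higher and 2 lower, close to those shares, and ALDH1A1, a retinaldehyde dehydrogenase, had 6.8 and 6.75 TPM in Treated, 20 and 19 in Day3, and 13.7 and 17.5 in Control libraries (-1.4 ± 0.21), the reverse of CD44. The higher count of 2 there was 1 without Treated replicate 1 or any 1 Control or Day3 library. Of 7 kallikreins, secreted proteases, 3 were higher and none lower, and KLK6 had 100 and 99.8 TPM in Treated, 62.5 and 64.6 in Day3, and 31.0 and 30.5 in Control libraries (0.65 ± 0.08). With unscaled TPM the IGF counts were 4 higher and 4 lower, WNT 3 and 6, and NOTCH 1 and 2 (median -0.17, against 0.06). On the same scale epithelial junctions had 1 higher and 11 lower, stem-cell markers 1 and 3, and kallikreins 3 and 2 (median -0.18, against 0.05).

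Markers of the line's tissue of origin were present in every group. As deposited, PAX8, the lineage factor of Mullerian epithelium, had 308.6 and 358.1 TPM in Treated, 431.6 and 437.5 in Day3, and 415.8 and 500.5 in Control libraries, and the epithelial adhesion molecule EPCAM had 452.8 and 310.5 TPM in Treated, 428.0 and 418.2 in Day3, and 347.1 and 349.6 in Control libraries. Of 17 ovarian carcinoma markers, 4 were higher and 7 lower in Treated than in Day3 cells. WT1, another factor of serous ovarian carcinoma, had 16.1 and 16.3 rescaled TPM in Treated, 58.4 and 56.0 in Day3, and 47.1 and 52.3 in Control libraries (-1.76 ± 0.19, adjusted p = 0.00019). CRABP2, which carries retinoic acid, had 157.2 and 153.8 rescaled TPM in Treated, 470.7 and 514.2 in Day3, and 275.2 and 317.8 in Control libraries (-1.66 ± 0.17). LYPD1 had 38.1 and 37.7 rescaled TPM in Treated, 107.2 and 112.1 in Day3, and 113.9 and 119.9 in Control libraries (-1.51 ± 0.14). In the other direction, MUC16, which carries the CA125 antigen, had 108.6 and 135.4 rescaled TPM in Treated, 54.8 and 53.7 in Day3, and 38.2 and 56.0 in Control libraries (1.15 ± 0.18, adjusted p = 0.00185). Markers of other cell types were low. Summed as deposited, the 6 immune markers held 7.744 and 9.045 TPM in Treated, 2.451 and 3.794 in Day3, and 5.975 and 3.375 in Control libraries, most of it CD68, and CD3E, MS4A1 and LYZ were each at most 0.221 TPM. The 7 fibroblast markers held 15.328 and 10.319 TPM in Treated, 10.477 and 11.244 in Day3, and 14.386 and 12.44 in Control libraries, mostly COL1A1, while COL3A1 was at most 0.018. The 5 endothelial markers held 2.578 and 2.79 TPM in Treated, 1.418 and 1.352 in Day3, and 1.368 and 1.486 in Control libraries, and the 4 mesothelial markers 20.148 and 21.165 in Treated, 14.915 and 18.184 in Day3, and 17.792 and 21.558 in Control libraries.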

How the data were processed

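RNA-seq of OVCAR-3 cells was analysed from 1 table that the authors deposited, which holds TPM for 58222 genes in 10 libraries after 349 blank lines were set aside. Per the submitters' processing notes the tools were Trimmomatic, STAR and Cufflinks with build GRCh38; none of the sources used here gives their versions, how RNA was selected or its strand. TPM keep no read counts, so depth is unknown and no counting error can be given. Gene positions are from GENCODE 29, which held 99.55% of the IDs.

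Each library was divided by its median ratio over 14782 genes. Genes with at least 1 TPM as deposited in 2 or more libraries were kept (15167). On log2(rescaled TPM + 1), a scale that understates changes of low genes, limma 3.58.1 (R 4.3.3) fitted 1 mean per group over all 10 libraries (5 residual degrees of freedom, trended variance), and a gene was called in a contrast where its p, adjusted by Benjamini-Hochberg, was below 0.05. Every p above is from this model, fitted across all genes, and ± is its standard error. Plots were drawn with Matplotlib 3.10.9 and tables made with pandas 2.3.3 in Python 3.11.15. The model was tested on simulated data.

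Genes were named by rule: the 10 largest called changes each way between Treated and Day3 among protein-coding genes whose highest group mean reached 5 TPM, 8 per class by the smaller of both changes against Control, members of each of 48 lists in the order of their called change, and MKI67, CDKN1A, EGR1, ATF3, ABCB1 and MUC16. Some genes that the rule selects are not reported here. Members and lists were chosen with earlier results of these data known. Alternatives were TPM not rescaled, nuclear protein-coding genes alone, a pseudocount of 0.1, no filter, a filter of 5 TPM, the 3 groups alone, a replicate block and each library left out.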

Additional observations from a re-analysis of the deposited data

How the results depend on the processing

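With TPM not rescaled, genes with Treated up and Day3 down numbered 52, those with Treated down and Day3 up 111 and shared increases 190, where the report gives 141, 60 and 322. With nuclear protein-coding genes alone, shared increases numbered 194 and shared decreases 613. Without a filter, which brings 27869 genes into the test, calls between Day3 and Control numbered 1270, the opposite classes 69 and 26, and shared increases 169. Leaving out 1 library at a time gave 2240 to 4958 calls between Treated and Day3, 1781 to 4225 between Treated and Control and 481 to 2474 between Day3 and Control. It gave 32 to 193 and 6 to 107 genes in the opposite classes, 69 to 429 shared increases and 100 to 436 shared decreases. Where a library is left out, its group's other library is assumed to vary like the other groups; the cause of these shifts was not tested. With the replicate number as a block, calls numbered 4509, 3739 and 1967, and the numbers did not pair the samples (correlations of same-numbered deviations from -0.0189 to 0.0872). A pseudocount of 0.1, a filter of 5 TPM and the 3 groups alone each kept these counts within 1.5 times. No named call reversed; among calls of named genes, 106 were lost with TPM not rescaled, 127 without a filter, 23 with nuclear genes alone, 22 with the 3 groups alone, 9 with the block, 8 with the lower pseudocount and 1 with the stricter filter. With 2 libraries a group and no read counts, small changes of low genes could not be resolved.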

Other observations

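The Extracted and Day1 libraries took part in the fit but in no tested comparison above. Their rescaled TPM for the leading genes follow as values, with no test. AREG had 23 and 30.2 TPM in Extracted and 21.6 and 14 in Day1 libraries. The laminin gene LAMA3 had 346.6 and 410.4 TPM in Extracted and 133.4 and 93.2 in Day1 libraries. For EGR1 the values were 45.4 and 34.8 TPM in Extracted and 8.25 and 8.53 in Day1 libraries. In these genes the Extracted libraries lay above the Day1 libraries. IGFBP5 had 2.57 and 3.06 TPM in Extracted and 20.1 and 21.4 in Day1 libraries. The secreted signal WNT11 had 14.7 and 14.6 TPM in Extracted and 74 and 141 in Day1 libraries. The stress factor ATF3 had 17.7 and 15.9 TPM in Extracted and 194.8 and 134 in Day1 libraries. Here the Day1 libraries lay above the Extracted libraries. Of the genes that were higher than Control in both states, S100A9 had 2.41 and 2.02 TPM in Extracted and 8.48 and 13.1 in Day1 libraries. IFIT1 had 2.42 and 2.37 TPM in Extracted and 11 and 5.89 in Day1 libraries. LCN2 had 27.3 and 33.4 TPM in Extracted and 74.7 and 54.6 in Day1 libraries. The nuclear RNA NEAT1 had 135.5 and 134.9 TPM in Extracted and 11 and 15.8 in Day1 libraries.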
